A study of Rattus norvegicus with 8 samples.

Results

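The genes of the colony-stimulating factors and of their receptors were followed in NR8383, a line of rat alveolar macrophages that came from the lung lavage of a normal rat and grows partly attached and partly floating. Cells spent 4 h in medium without serum, either untreated (control) or exposed to the multi-walled carbon nanotube NM401 at a dose of 0.17 µg/mL. Each condition had 4 replicates, each on a one-colour Agilent array, and as a single line the cells stand for no more than one source of alveolar macrophages. The 6 genes were the ligands Csf1, Csf2 and Csf3 and the receptor genes Csf1r, Csf2rb and Csf3r, chosen by gene name in the array files among 36306 gene names, and they were represented by 8 of 45598 probes. Of the 6 genes, 3 (Csf1r, Csf2rb and Csf3) had a probe well above background on all 8 arrays and were tested, among 17466 genes tested in all. The other 3 (Csf1, Csf2 and Csf3r) were not well above background on any array.

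Colony-stimulating factors are secreted proteins that keep myeloid cells alive and direct their growth and maturation. M-CSF, encoded by Csf1, acts through the receptor tyrosine kinase encoded by Csf1r, which macrophages need for survival. GM-CSF, encoded by Csf2, acts through a ligand-specific alpha chain (Csf2ra) and the signalling beta chain encoded by Csf2rb, which it shares with the receptors of interleukin-3 and interleukin-5, and alveolar macrophages depend on it for maturation and surfactant clearance. G-CSF, encoded by Csf3, acts through the receptor encoded by Csf3r, which is found above all on neutrophils and their precursors. The GM-CSF and G-CSF receptors have no kinase of their own and signal through JAK kinases and STAT transcription factors.

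The sequences that carried the measurements are shown for the receptor probes that were bright enough to test, for the second Csf1r probe, which gave a different reading of the same gene name, and for the ligand Csf2. They are 60 bases long, taken from the array files, 5′ to 3′, with positions on rat build rn4.
Csf1r, probe A_44_P257582: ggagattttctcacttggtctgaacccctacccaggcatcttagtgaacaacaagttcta
Csf1r, probe A_44_P503932: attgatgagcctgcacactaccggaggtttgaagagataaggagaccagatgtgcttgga
Csf2rb, probe A_44_P398210: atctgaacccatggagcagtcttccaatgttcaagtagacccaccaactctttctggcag
Csf2, probe A_44_P247880: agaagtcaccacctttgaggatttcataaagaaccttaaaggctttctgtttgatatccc
The first Csf1r probe is listed at chr18:57105231-57105932, a span of 702 bases for 60 bases of probe, so the listed position covers more genome than the probe itself. The second is listed at chr18:57061458-57061517, and its accession was not in the RefSeq table used for names (assembly GRCr8), whereas those of the remaining probes matched their gene. The Csf2rb probe lies at chr7:116270933-116270992 and the Csf2 probe at chr10:39665887-39665946 on the minus strand. The Csf3 probe, A_64_P007508, lies at chr10:87476306-87476365, and the Csf3r probe at chr5:145393491-145393550. The Csf1 probes lie at chr2:203292994-203293053 and chr2:203296273-203296332. Exons and untranslated regions of rn4 were not used here.

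NM401 arrays were brighter than control arrays as a whole. The arrays' 75th percentiles of processed signal averaged 1240 ± 224 (SD, n = 4) in control. They averaged 2690 ± 172 (SD, n = 4) in NM401, and every NM401 array lay above every control array (exact permutation p = 0.0286, two-sided, the smallest that 4 against 4 arrays allow). Each value was therefore taken on the log2 scale relative to the 75th percentile of its own array, and differences below are relative to it unless called unscaled. Slide 1 carried the controls together with NM401 replicate 1, and slide 2 the remaining NM401 arrays. Position on the slide cannot be told apart from group, since controls filled row 1 and exposed samples row 2. A gene was called at a limma adjusted p below 0.05, and 57.3% of the 17466 genes were called, 21.9% higher and 35.4% lower with NM401. Of the calls 38.2% were higher, against 49.5% after quantile normalisation and 64.5% after median scaling.

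**Figure D1:**
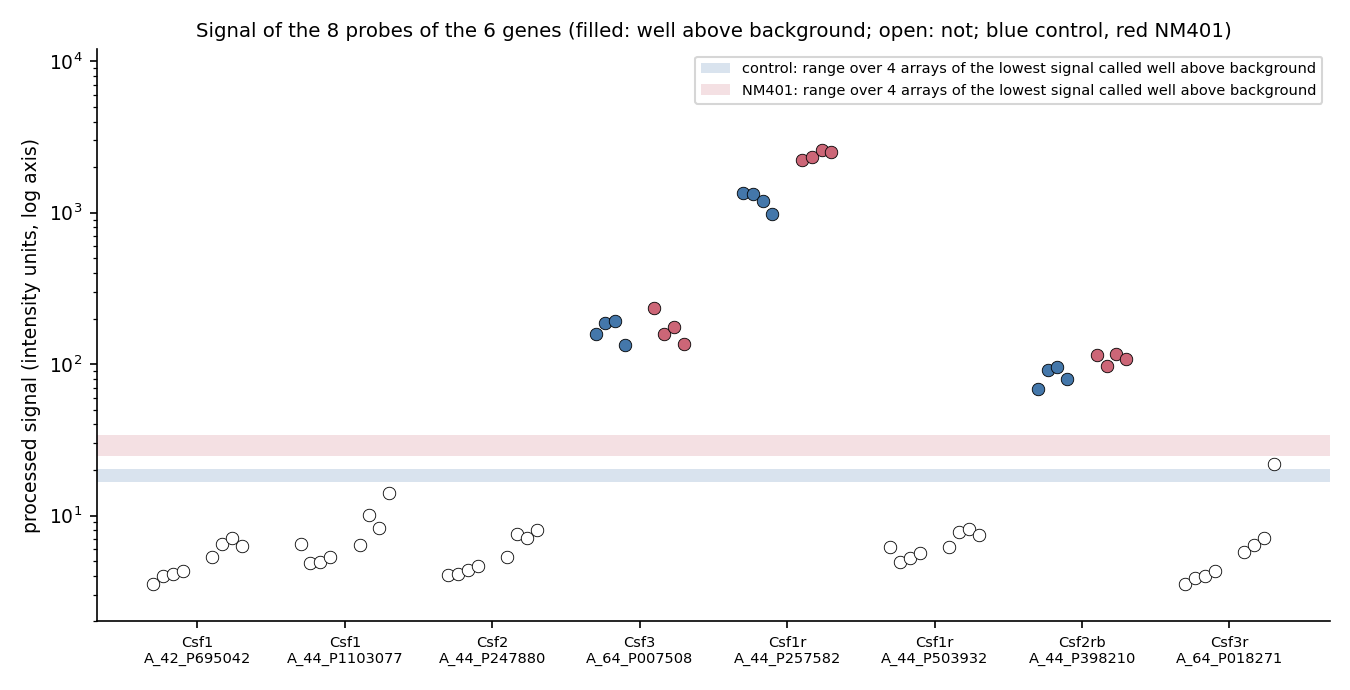
Processed signal in intensity units (log axis) of the 8 probes of the 6 genes on the 4 control (blue) and 4 NM401 (red) arrays, filled where the spot was well above background. The bands give the range over arrays of the lowest signal that was well above background, 16.7 to 20.3 in control and 24.6 to 34.1 in NM401, and only Csf3, the first Csf1r probe and Csf2rb lie above them.

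Among the ligands, Csf3 was the only one with a measurable transcript signal, and it was lower with NM401 relative to the array. Csf3 encodes G-CSF, which drives the production and release of neutrophils. Relative to the 75th percentile, control replicates 1 to 4 gave -3.06, -3.00, -2.62 and -2.85, and NM401 replicates 1 to 4 gave -3.62, -4.02, -4.00 and -4.23. All 4 NM401 arrays lay below all 4 control arrays, and NM401 replicate 1, the one on the controls' slide, lay nearest to them. The mean was -2.88 ± 0.20 over the controls and -3.97 ± 0.25 over the NM401 arrays (SD, n = 4 each), a log2 difference of -1.09 ± 0.14 (SE, limma adjusted p = 0.000508), or 2.12-fold lower. In the same fit 35.4% of genes were called lower, and 5.43% had a difference as low as that of Csf3 or lower.

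Csf3 fell relative to the array, while the brightness of its own spot overlapped between the groups. Its unscaled processed signal was 158, 186, 192 and 133 in control replicates 1 to 4 and 234, 157, 175 and 136 in NM401 replicates 1 to 4. These groups overlapped, with means of 167 ± 27.4 (SD, n = 4) and 175 ± 42 (SD, n = 4) and a log2 difference of 0.054 (exact permutation p = 0.8286, two-sided). Relative to the median difference of all genes, itself -0.10 on the 75th percentile scale, the difference of Csf3 was -0.99. NM401 replicate 1 differed from the control mean by -0.74 and was not called on its own within slide 1 (limma adjusted p = 0.0639), and the 3 NM401 arrays of slide 2 differed by -1.20.

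Csf2, the gene of GM-CSF, gave no signal well above background on any array. Its processed signal was 4.07, 4.12, 4.35 and 4.65 in control replicates 1 to 4 and 5.3, 7.53, 7.11 and 7.98 in NM401 replicates 1 to 4. All these values lay under the lowest signal that was well above background on the same array, and that limit was itself higher on the NM401 arrays, so no fold is given. The software found the spot above background at its looser test, positive and significant, on 1 control and 2 NM401 arrays.

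Csf1, the gene of M-CSF, was likewise not measurable with either of its probes. The probe A_42_P695042 gave 3.55 to 4.29 in control and 5.3 to 7.11 in NM401, and the probe A_44_P1103077 gave 4.84 to 6.44 in control and 6.38 to 14.2 in NM401. Neither probe was well above background on any array. Over the 5 probes without a measurable signal, 3 of 20 control spots and 6 of 20 NM401 spots were positive and significant. The share over all spots was not taken, so these counts are not read as a difference between the groups.

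Among the receptors, Csf1r was measured on every array and was not called. Csf1r encodes the M-CSF receptor, a defining receptor of macrophages. Relative to the 75th percentile, control replicates 1 to 4 gave 0.04, -0.16, 0.03 and 0.02, and NM401 replicates 1 to 4 gave -0.36, -0.12, -0.12 and -0.03. The groups overlapped, since control replicate 2 lay below 3 of the NM401 arrays, and NM401 replicate 1 was the lowest of all. The mean was -0.02 ± 0.10 over the controls and -0.16 ± 0.14 over the NM401 arrays (SD, n = 4 each), a log2 difference of -0.14 ± 0.09 (SE, limma adjusted p = 0.189) with a 95% confidence interval from -0.34 to 0.06. With slide as a block, which leaves NM401 replicate 1 to carry the comparison, it was called at -0.34 (limma adjusted p = 0.0406). Its unscaled signal was 1216 ± 175 over the controls and 2413 ± 155 over the NM401 arrays (SD, n = 4 each), a rise close to that of the arrays' 75th percentile (log2 differences of 1.00 and 1.14).

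The second Csf1r probe, A_44_P503932, gave no signal well above background. Its processed signal ran from 4.91 to 6.2 in control and from 6.2 to 8.12 in NM401. The 2 probes of this gene name thus differed in whether anything was measured, and the Csf1r values above rest on A_44_P257582 alone.

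Csf2rb, the shared signalling chain of the GM-CSF, interleukin-3 and interleukin-5 receptors, was lower with NM401 relative to the array. Control replicates 1 to 4 gave -4.28, -4.02, -3.62 and -3.58, and NM401 replicates 1 to 4 gave -4.64, -4.70, -4.59 and -4.56. The NM401 arrays lay close together and all below the controls, which were more spread. The mean was -3.87 ± 0.33 over the controls and -4.62 ± 0.06 over the NM401 arrays (SD, n = 4 each), a log2 difference of -0.75 ± 0.15 (SE, limma adjusted p = 0.00388), or 1.68-fold lower. A difference as low or lower was found in 11.4% of all genes. Both slides gave a like difference from the control mean, -0.77 for NM401 replicate 1 and -0.74 for the 3 arrays of slide 2. With only NM401 replicate 1 to carry the comparison the call was lost, with a limma adjusted p of 0.0575 with slide as a block and 0.138 within slide 1.

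The direction of Csf2rb turned without scaling. Its unscaled signal was 68, 91.5, 96.2 and 80.1 in control replicates 1 to 4 and 115, 97.9, 117 and 108 in NM401 replicates 1 to 4. On that scale all NM401 arrays were above all controls, with a log2 difference of 0.39 (exact permutation p = 0.0286, two-sided).

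Csf3r, the G-CSF receptor gene and a neutrophil marker, passed the background limit on 0 of 8 arrays. Its processed signal was 3.53, 3.89, 4.00 and 4.31 in control replicates 1 to 4 and 5.77, 6.43, 7.06 and 21.7 in NM401 replicates 1 to 4. NM401 replicate 4 stood apart, but still below 30.0, the lowest signal that was well above background on that array.

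**Figure D2:**
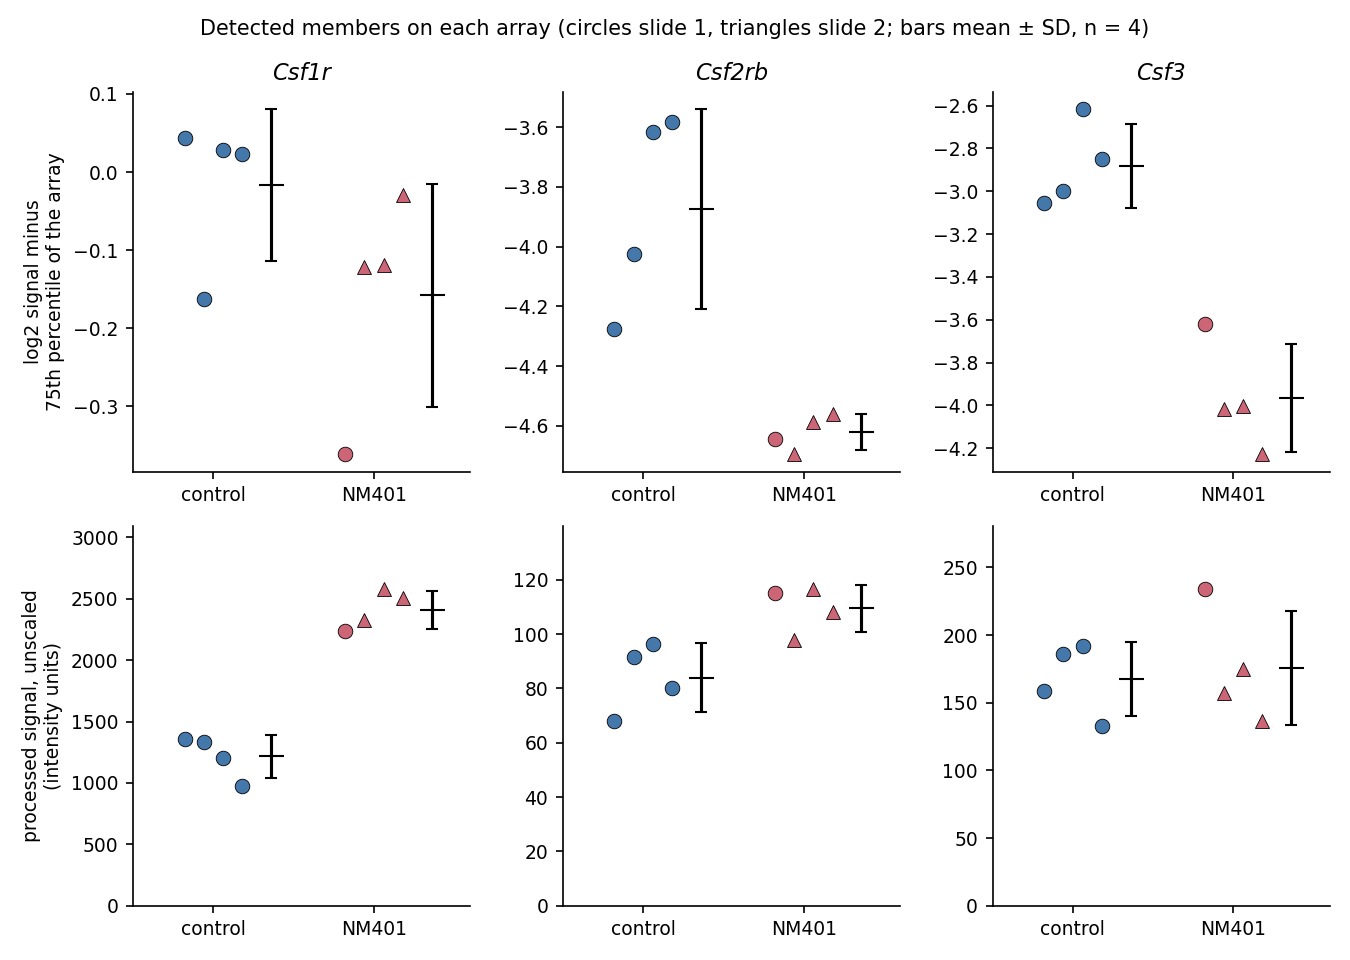
Values of Csf1r, Csf2rb and Csf3 on each array (circles slide 1, triangles slide 2) with mean ± SD over 4 arrays, as log2 signal minus the array's 75th percentile (top) and as unscaled processed signal in intensity units (bottom). NM401 lies below control without overlap for Csf2rb and Csf3 in the top row, whereas in the bottom row Csf2rb and Csf1r lie above control and Csf3 overlaps.

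Of the 3 genes tested 2 were called lower, where 35.4% of all genes were. For the same 2 every NM401 array lay below every control array, as for 32.2% of all genes, while 53.2% had groups that did not overlap in either direction. Csf3 and Csf2rb were also called lower with median scaling (-0.88 and -0.54), and after quantile normalisation, where Csf2rb stood at -0.63. They were called lower with normexp background correction too (-0.95 and -0.79). With normexp, however, every probe without a measurable signal also lay lower, such as Csf1 probe A_42_P695042. That probe ran from -4.49 to -4.00 relative to the 75th percentile in control and from -5.18 to -5.03 in NM401. A call with normexp thus cannot tell a dim spot from less transcript. The share of all genes called lower was 54% with normexp, 27.9% with quantile normalisation, 19.3% with median scaling, 20.2% with slide as a block and 7.8% within slide 1. Without scaling between arrays, where 2.13% of genes were called lower, neither Csf3 nor Csf2rb was lower. The same held with scaling to the spike-in spots, where 0.309% of genes were called lower. Spike-in spots, which come from RNA added in the labelling and not from the cells, differed by -2.31 log2 units in NM401 relative to the 75th percentile (exact permutation p = 0.0286, two-sided). Scaled to them, the log2 differences were 1.22 for Csf3, 1.56 for Csf2rb and 2.17 for Csf1r, in a fit where 17082 of 17466 genes were called higher. Whether equal amounts of spike-in RNA were added to both groups is not given in the sources used here.

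**Figure D3:**
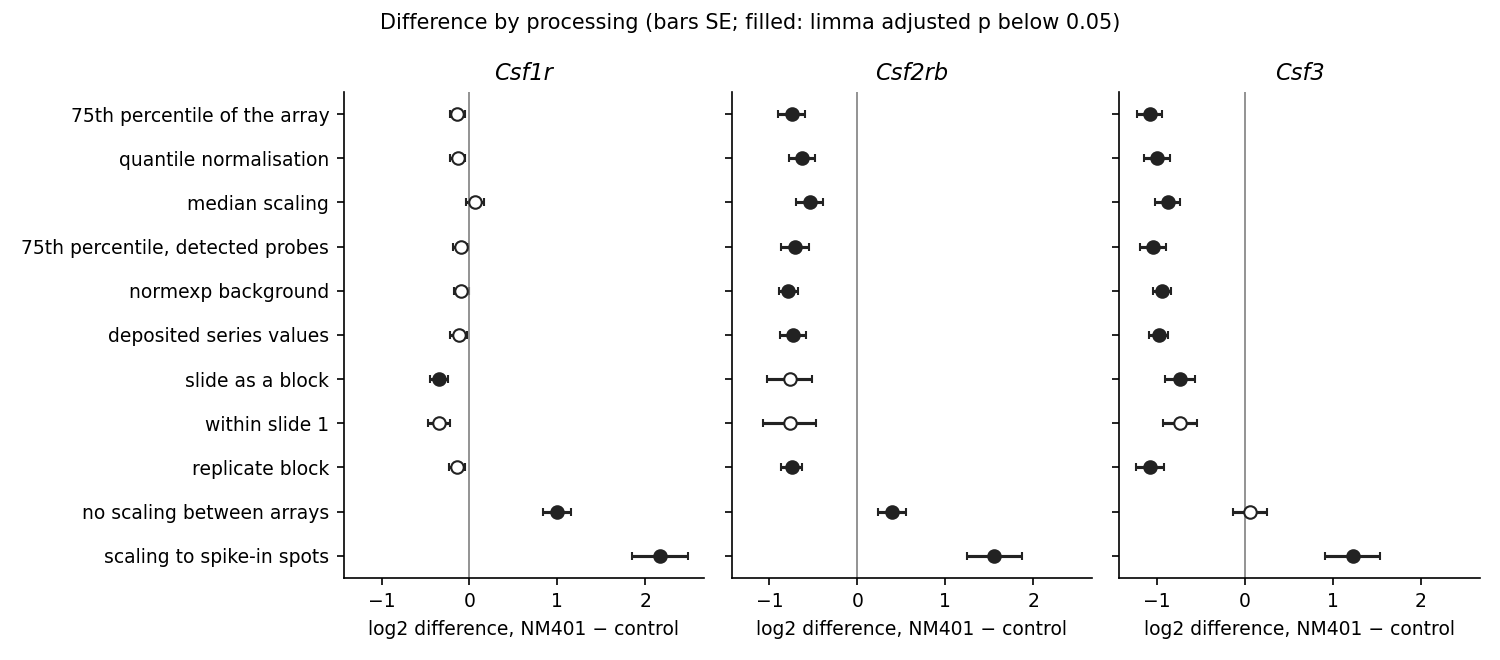
Log2 difference of NM401 minus control for Csf1r, Csf2rb and Csf3 under 11 ways of processing, with SE bars and filled points where the limma adjusted p was below 0.05. Csf3 and Csf2rb lie below 0 in the first 9 rows and at or above 0 without scaling and with spike-in scaling, and Csf1r is called only with slide as a block (-0.34) among the first 9.

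A difference between genes on the same array does not depend on a constant scaling, so it was also compared. Csf3 minus Csf1r was -2.86 ± 0.19 over the controls and -3.81 ± 0.39 over the NM401 arrays (SD, n = 4 each), a change of -0.94 without overlap (exact permutation p = 0.0286, two-sided). Csf2rb minus Csf1r changed by -0.61, with overlap (exact permutation p = 0.0571), and Csf3 minus Csf2rb by -0.34 (exact permutation p = 0.0857). None of the 3 passed after Benjamini-Hochberg adjustment over the 3 pairs (adjusted p = 0.0857 for each); 1 pair alone at the smallest exact p could not pass. The change of Csf3 against Csf1r was -0.40 for NM401 replicate 1.

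The genes whose values followed Csf3 most closely over the 8 arrays were Slc39a2, Gas1 and Dcakd, with Pearson's r of 0.997, 0.997 and 0.994 among 9977 named genes well above background on all arrays. Many genes came close to this, since 14.7% had an r above 0.9, and the points share the difference between the groups. For Csf2rb the closest 3 included Midn and Engase (r of 0.992 and 0.986), and 7.74% of genes had an r above 0.9. For Csf1r they were Zc3h3, Igsf6 and Tob2 (r of 0.958, 0.955 and 0.953), and 0.2% had. After the group means were subtracted, Gas1 and Slc39a2 were again among the closest 3 to Csf3 (r of 0.982 and 0.978), after Ctbs at 0.991. On that measure Gps2, Ahi1 and Kif4a were closest to Csf1r (r of 0.976, 0.975 and 0.975), and Hsbp1, Cdc23 and Igf2bp1 to Csf2rb (r of 0.983, 0.982 and 0.979). With group means subtracted, 0.43% of genes had an r above 0.9 with Csf3, 0.57% with Csf1r and 0.76% with Csf2rb. Both rankings are descriptions over the same 8 arrays.

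Around the receptors, a list of 63 other genes of colony-stimulating factor signalling was followed, of which 53 were tested, 13 were higher, 18 lower and 22 not called. These shares, 24.5% higher and 34% lower, were near those of all genes, 21.9% and 35.4%, and the median difference of the list was -0.08 against -0.10 for all genes. All counts and values in this list are relative to the 75th percentile of the array, and without scaling between arrays 50 of the 53 were called higher and 0 lower (limma, 0 also at an unadjusted p below 0.05). With slide as a block all 31 called genes had the same direction and 19 were still called, and within slide 1, on NM401 replicate 1 alone, 8 were.

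Related ligands were mostly not measurable. Of Il34, the other ligand of the M-CSF receptor, Il3, Il5 and Kitlg, only Il34 was tested, and it was not called at -0.17 ± 0.22 (SE, limma adjusted p = 0.532), with 3 of 4 arrays of each group well above background. Il34 was called lower with normexp (-0.75, limma adjusted p = 6.77e-05) and on the deposited series values (-0.70, limma adjusted p = 0.000307). Those settings called 54% of all genes and 8456 of 17466 genes lower, and the level of Il34 stood at percentile 0.5 of the genes tested. With normexp, probes without a measurable signal lay lower too, so these calls are not read as a fall of Il34. Of the related receptor genes, Csf2ra, the alpha chain of the GM-CSF receptor, stood at -0.22 ± 0.11 and was not called (SE, limma adjusted p = 0.116), but with slide as a block it was called at -0.50 (limma adjusted p = 0.0227). Both chain genes of the GM-CSF receptor were thus measured on all arrays, and the difference between Csf2ra and Csf2rb was not tested. Il3ra was not called, and Il5ra and Kit were not well above background on any array. Flt3, a receptor tyrosine kinase of early blood cells, was called lower (limma adjusted p = 0.00333), with 3 of 4 control arrays but 1 of 4 NM401 arrays well above background, so the size of the difference is not given. Its call was lost with slide as a block (limma adjusted p = 0.102).

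Receptor kinases and adaptors went both ways. Of 17 tested, 3 were higher (Tyrobp, Grb2 and Shc1), 5 were lower (Jak1, Pik3cd, Plcg2, Akt1 and Pik3cg) and 9 were not called. Jak1, a kinase of cytokine receptors, fell by 0.44 ± 0.08 log2 units (SE, limma adjusted p = 0.00221). Pik3cd, a catalytic subunit of phosphoinositide 3-kinase in leukocytes, fell by 0.75 ± 0.16, but stood at -0.25 with slide as a block (limma adjusted p = 0.118), where the calls of Jak1, Shc1 and Pik3cg were lost too. Jak2, the kinase bound to the Csf2rb chain, stood at 0.26 and was not called (limma adjusted p = 0.0769). It was called higher with median scaling (0.46, limma adjusted p = 0.0173), with the 75th percentile taken over detected probes (0.30, limma adjusted p = 0.0494) and on the deposited series values (0.24, limma adjusted p = 0.0422). Tyrobp, an adaptor of Csf1r signalling, rose by 0.35 ± 0.05 and the adaptor gene Grb2 by 0.23 ± 0.05 at their brightest probes. As means of 2 tested probes none of these 3 was higher, with Tyrobp at -0.33 and Shc1 at -0.04, so the direction depended on the probe. Akt1 and Pik3cg turned with median scaling.

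Of 10 transcription factors tested, 2 were higher, 5 lower and 3 not called. Stat5a, a main STAT of GM-CSF signalling, fell by 0.52 ± 0.07 log2 units (SE, limma adjusted p = 0.000744), and Stat3, the main STAT of G-CSF signalling, by 0.52 ± 0.07 (0.000462). Stat5b and Pparg, a factor that GM-CSF induces in alveolar macrophages, were among those called lower. Spi1, which encodes PU.1, a driver of myeloid receptor genes, was among those called higher. None of these 5 genes turned with quantile or median scaling. The call of Pparg was lost with both of these and that of Stat5b with median scaling, and with slide as a block those of Spi1, Pparg and Stat5b were lost. Their differences under that block were 0.41, -0.35 and -0.39, against 0.56, -0.40 and -0.28 without it.

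Negative regulators held the largest rise of the list. Of 10 tested, 3 were higher (Socs3, Dok2 and Adam17), 4 lower (Cblb, Ptpn6, Inpp5d and Cbl) and 3 not called. Socs3, which blocks signalling of the G-CSF receptor and of the interleukin-6 family, rose by 1.78 ± 0.11 at its brightest probe (SE, limma adjusted p = 4.19e-05). As the mean of its 2 tested probes it stood at 0.89 (limma adjusted p = 0.000719), so the size of the rise depended on the probe. Within slide 1, where NM401 replicate 1 was the only exposed array, the brightest Socs3 probe stood at 1.90. Cblb, a ubiquitin ligase, fell by 0.83 ± 0.06 on the log2 scale (limma adjusted p = 4.58e-05). The phosphatase genes Ptpn6 and Inpp5d fell by 0.45 ± 0.05 and 0.44 ± 0.07, but Ptpn6 turned after quantile normalisation, where it was not called. Dok2, an adaptor that dampens tyrosine kinase signalling, moved from 1.09 to 0.33 with normexp. The call of Cbl, the ligase that acts on Csf1r, was lost with median scaling and with slide as a block.

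Of 6 growth and survival genes that colony-stimulating factors can induce, 3 were higher, 0 lower and 3 not called (limma, 0 lower also at an unadjusted p below 0.05). The cyclin genes Ccnd2 and Ccnd1 rose by 0.89 ± 0.17 and 0.68 ± 0.07 and the transcription factor gene Myc by 0.81 ± 0.14, whereas Pim1, Bcl2l1 and Mcl1 were not called. With slide as a block Ccnd2 stood at 0.34. With normexp background correction, where 54% of all genes were called lower, Pim1 and Bcl2l1 were called lower at -0.59 and -0.40. Of 6 tested genes that control ligand transcripts, 2 were higher (Zc3h12a and Nfkb1), 3 lower (Elavl1, Rela and Hnrnpd) and 1 not called. Zc3h12a, an RNase that degrades cytokine mRNAs, rose by 0.93 ± 0.09. Elavl1, which stabilises such mRNAs, fell by 0.67 ± 0.09, the NF-kappaB gene Rela by 0.38 ± 0.07 and Hnrnpd by 0.32 ± 0.07. The calls of Rela and Hnrnpd were lost with median scaling and with slide as a block, and Nfkb1 stood at -0.09 as a mean of its 2 tested probes. Whether these bear on Csf3 was not tested.

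**Figure D4:**
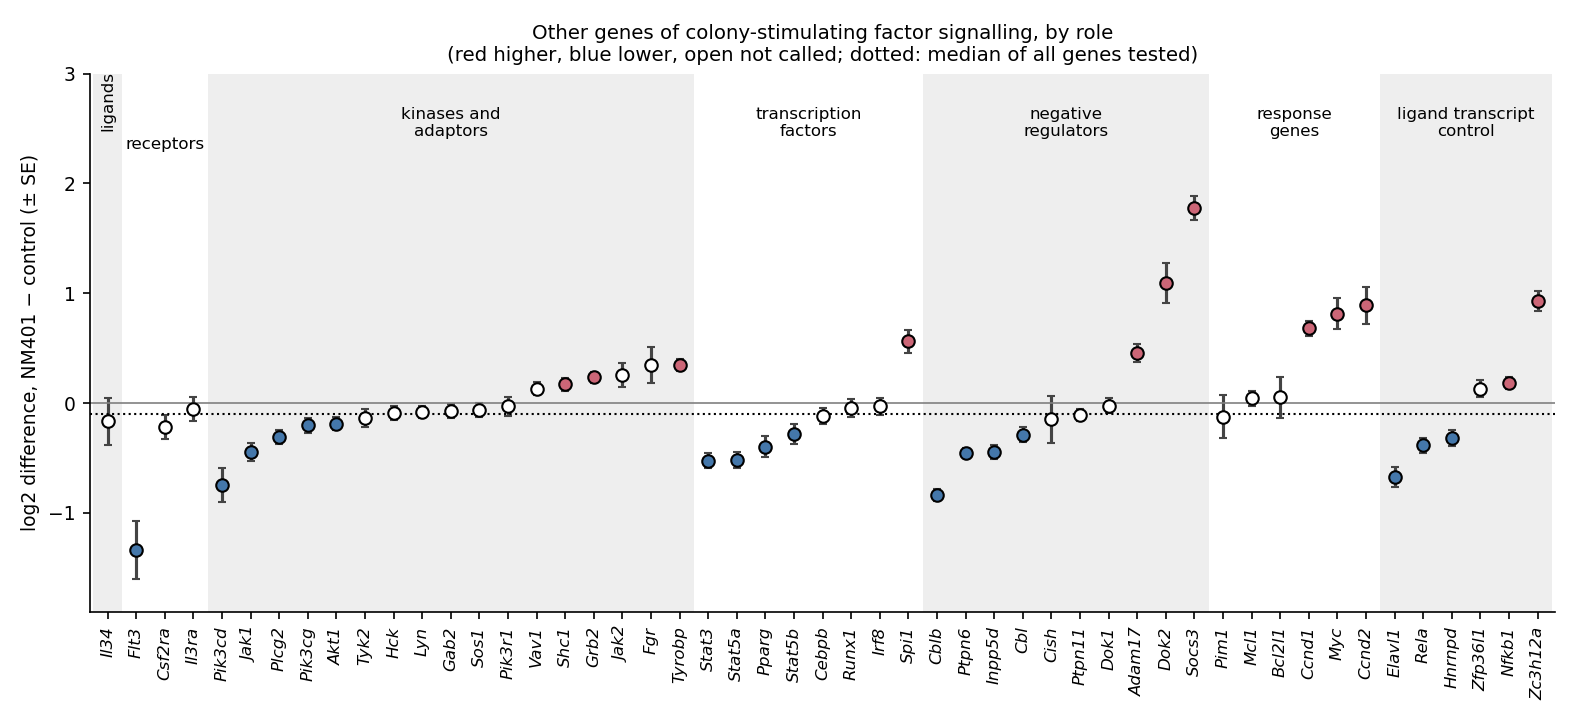
Log2 difference of NM401 minus control (± SE) for 51 of the 53 tested genes of colony-stimulating factor signalling by role, on the 75th percentile scale, red where called higher, blue where called lower and open where not called, with the median of all genes dotted. Socs3 stands highest at 1.78, its brightest probe, against 0.89 as the mean of its 2 tested probes. Flt3, the lowest point, was well above background on only 1 of 4 NM401 arrays. Without scaling between arrays no gene of the list was called lower.

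The label of the cells was set against markers. Of 12 macrophage markers 8 were well above background on all 8 arrays, among them Cd68, Lyz2 and Ptprc, while Marco and Cd163 were not so on any array. The summed level of the 11 macrophage markers on the array ran from 135 to 143 times the 75th percentile in control and from 119 to 126 in NM401. The sum does not stand for each marker, since of 9 tested 2 were higher (Adgre1 and Msr1), 3 lower (Cd68, Lyz2 and Mrc1) and 4 not called, and Lyz2 was called higher after quantile normalisation. Adgre1 was well above background on 1 of 4 control arrays and 4 of 4 NM401 arrays. It was not called with normexp (-0.07, limma adjusted p = 0.554) or on the deposited series values (0.10, limma adjusted p = 0.419), nor with slide as a block. Of 8 neutrophil markers, the cells in which Csf3r is best known, 3 (Camp, Mpo and S100a8) were tested and called lower, where 35.4% of all genes were, and Elane, S100a9 and Cxcr2 were not well above background on any array. Mpo was well above background on 4 of 4 control but 0 of 4 NM401 arrays, so it passed the detection filter through the controls alone. For S100a8 these counts were 3 and 1, and the sizes of the Mpo and S100a8 differences are not given. The calls of Camp and S100a8 were lost with slide as a block (limma adjusted p = 0.351 and 0.36), that of Camp also with median scaling (0.0575) and that of S100a8 after quantile normalisation (0.0839). The summed level of the neutrophil list ran from 0.486 to 0.671 in control and from 0.319 to 0.445 in NM401. That sum rests mostly on Camp and does not stand for each marker. On the log2 scale the control mean was -1.06 for Camp, -4.89 for Mpo and -5.40 for S100a8. The summed level was 0.69 to 0.922 and 0.347 to 0.405 for lymphocyte markers (3 of 7 never well above background). Of these, 2 were tested and called lower, and the sum rests mostly on Nkg7 (control mean -0.58 on the log2 scale, against -3.42 for Cd3d). For fibroblast and endothelial markers (3 of 7, Col1a1, Col3a1 and Kdr, never well above background) the summed level was 0.99 to 1.01 and 1.15 to 1.3. In control Pecam1 was the brightest of them (-0.70) and Dcn the next (-2.24). Of the fibroblast and endothelial markers 4 were tested, and 1 was higher (Dcn, 1.49), 2 lower (Cdh5, -1.15, and Col1a2, -1.20) and 1 not called (Pecam1, -0.09). Of 8 epithelial markers 0 were tested, 5 were never well above background, and the sum was 0.0521 to 0.0748 and 0.0248 to 0.0713. Their part in the results was not tested, and in bulk RNA fewer cells with a transcript and less of it per cell cannot be told apart.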

How the data were processed

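Scanner output of 8 arrays was used. Per the file headers, the authors obtained its intensity values with version 11.0.1.1 of Agilent Feature Extraction. Processed signals are background-subtracted and detrended on each array, with no scaling across arrays. The series values that the authors deposited equalled the median pixel intensity at 503808 of 503808 spots (tolerance 1e-06). Outlier spots were removed, log2 values of a probe's spots averaged, and the 75th percentile of non-control spots subtracted. The 21706 probes that passed the detection filter (well above background on 4 arrays or more) were tested with limma 3.58.1 in R 4.3.3 (lmFit and eBayes, two-sided) with Benjamini-Hochberg adjustment over all. The fit was tested on simulated data with the probes' means and control spreads. Those data held no slide effect and no brightness difference between groups, so the test does not bear on these features of the arrays. Each gene took its brightest tested probe. Names came through accessions in the RefSeq table for 21109 of 45598 probes and otherwise from the files. Positions are on rn4, per the file headers. The labels call the replicates biological, and the number of arrays limits the precision. The genes, lists and tests were chosen with earlier results of these data known. In each pathway list up to 4 called genes with the smallest p have values. Values under alternatives, and those of marker genes and of Csf2ra, Il34, Jak2, Dok2, Nfkb1, Spi1, Pparg and Stat5b, which were not called or lie outside that rule, were chosen after they were seen. Alternatives were normexp (offset 50), other scalings and filters, the mean of a gene's probes, the deposited series values, slide and replicate number as blocks, and leaving out each array. No scaling and scaling to 214 spike-in spots were chosen after seeing the data. Some genes of these lists are not reported here.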

Additional observations from a re-analysis of the deposited data

Results flagged for a closer look

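Of 32 groups of 4 arrays examined (8 probes, 2 conditions, scaled and unscaled values), 4 held an array whose gap to the nearest other exceeded Dixon's critical value for 4 values, where chance flags about 1 group in 20. Csf3r in NM401 replicate 4 stood at -6.88 relative to the 75th percentile and at 4.44 as log2 of the unscaled signal, above the other 3 NM401 arrays on both scales, but the spot was not well above background there. Csf1 probe A_42_P695042 in NM401 replicate 1 stood at -9.09, below the other 3, again under the detection limit. Csf1r in control replicate 2 stood at -0.16, below the other 3 control arrays, and without that array the Csf1r difference was -0.19 (limma adjusted p = 0.101).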

How the results depend on the processing

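Csf3, Csf2rb and Csf1r kept their direction and their side of the threshold in 18, 17 and 17 of 21 alternatives. These alternatives are not independent checks. Other detection filters, the mean of tested probes and the replicate block left the differences of these genes unchanged by construction. The fits without 1 array share most of their arrays, and slide as a block and within slide 1 give the same differences. With slide as a block, Csf1r was called at -0.34 and Csf2rb was not at -0.77; within slide 1, neither Csf3 (-0.74) nor Csf2rb (-0.77) was called. Both rest on NM401 replicate 1 alone. Csf1r turned with median scaling (0.063, not called). Without scaling between arrays Csf3, Csf1r and Csf2rb stood at 0.054, 1.00 and 0.39, and with spike-in scaling at 1.22, 2.17 and 1.56. Both settings were chosen after seeing the data, and they add the same amount to every gene of an array. Leaving out 1 array gave -1.20 to -0.998 for Csf3, -0.19 to -0.07 for Csf1r and -0.88 to -0.65 for Csf2rb, with Csf3 and Csf2rb called each time. Genes called higher and lower were 3268 to 3715 and 5421 to 6161 without 1 array, 6115 and 3368 with median scaling, 2218 and 3530 with slide as a block, 750 and 1362 within slide 1, 15276 and 372 without scaling, and 17082 and 54 with spike-in scaling; normexp gave 9424 lower. Pathway genes were 11 to 14 and 16 to 18 without 1 array, 10 lower with median scaling and 10 lower with slide as a block, 4 and 4 within slide 1, 50 and 0 without scaling and 53 and 0 with spike-in scaling (limma, 0 lower also at an unadjusted p below 0.05 in both). Beyond the constructions named, the cause was not tested. Same-numbered control and NM401 arrays did not deviate together (r of 0.193, -0.003, 0.083 and -0.072 across genes), so numbers were not taken as pairs; with the replicate block Csf3 stood at -1.09 (limma adjusted p = 0.0053), Csf2rb at -0.75 (0.00725) and Csf1r at -0.14 (0.239). Probes near background have no usable fold, and the signal over background limits Csf1, Csf2 and Csf3r to that.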
